A study of Mus musculus with 16 samples.

Results

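Microglia sorted from APPswe/PS1dE9 mice with intact microglial p38 (AD p38+/+) were compared here with microglia sorted from wild-type mice with intact p38 (WT p38+/+), to ask how their gene expression differed with APP/PS1 when p38 was left in place. The comparison used 8 of the 16 libraries of the study, 4 mice against 4, and the 13022 of 20267 genes in the table that reached 1 count per 1000000 assigned reads (CPM) in at least 4 of these 8 libraries. Neither group carried the Cx3cr1-creERT2 driver, so the floxed p38α alleles (p38fl/fl) that both groups shared were not cut by Cre; the AD p38+/+ mice carried the APPswe/PS1dE9 transgenes and the WT p38+/+ mice did not. All were on a C57BL/6J background, ate tamoxifen chow (400 ppm) for 4 weeks from 5 months of age, and were examined at about 11 months. In each group 1 mouse was female and 3 were male, and mouse 1 was the female in both. The other 8 libraries came from WT and AD mice carrying Cx3cr1-creERT2 (+/-) and labelled as lacking p38α in microglia through Cre (p38KO). They shared the estimate of the spread, and their own AD and WT mice were read as a second set of animals.

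As background, microglia are the resident macrophages of the brain. In the healthy brain they survey tissue through purine and fractalkine receptors and depend on the CSF1 receptor. Around amyloid plaques they take up debris and lipid and adopt a state known as disease-associated microglia, marked by lysosomal, lipid-handling and secreted genes, in part through the receptor TREM2 and its adaptor TYROBP. APPswe/PS1dE9 mice carry mutant human or mouse-human transgenes, among them a mutant amyloid precursor protein, driven by the mouse prion protein promoter, and form amyloid plaques.

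About 10000 live cells positive for CD11b and P2ry12 were sorted per mouse, so cells that had lost surface P2ry12 could not enter either group. The 4 libraries of each group were those with the highest RNA integrity among the mice processed. Depth was estimated as 13.1 to 16.4 assigned reads for each CPM, which put 3 reads at 0.183 to 0.229 CPM, and between 16958 and 18014 genes were above 0. The marker genes of microglia that define the gate, P2ry12 (6639 to 10100 CPM) and Itgam, the gene for CD11b (1209 to 2286 CPM), were present in all 8 libraries. Summed markers of other cells overlapped between the groups: neurons 6.21 to 15.8 CPM, oligodendrocyte lineage 182 to 286 CPM, astrocytes 176 to 274 CPM, endothelial and mural cells 38.2 to 64.4 CPM, border-associated macrophages 377 to 833 CPM, monocytes and granulocytes 355 to 539 CPM, red blood cells at most 12.9 CPM. Single genes carried most of some sums: Slc1a3 (146 to 230 CPM) among astrocyte markers, Stab1 (351 to 754 CPM) among those of border-associated macrophages and Csf3r (338 to 530 CPM) among those of monocytes and granulocytes. The lymphocyte and NK sum, 493 to 831 CPM, came mostly from Ighm, the immunoglobulin mu heavy chain (460 to 800 CPM). In sorted bulk RNA, more cells in a state and more RNA per cell cannot be told apart.

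With APP/PS1, 47 genes were called higher and 0 lower at an adjusted p under 0.05 by limma with Benjamini-Hochberg adjustment, which is 0.361% of the 13022 genes tested. At an unadjusted p under 0.05 there were 617 genes higher (4.74%) and 326 lower (2.50%), and 48.5% of all genes had a positive difference. Differences are given as AD minus WT ± SE on the log2(CPM + 0.5) scale, and spreads of CPM values as SD, with n = 4 mice per group throughout. The called genes rose by 0.41 to 4.24 on the log2 scale with a median of 1.73, while the median over all genes tested was -0.009. By size, 22 rose by at least 2, 11 by 1 to 2 and 14 by less than 1. In each of the 47 the lowest AD p38+/+ mouse lay above the highest WT p38+/+ mouse. That separation was met by 3.31% of all genes tested in that direction and by 1.91% in the other. The 47 were called on these same mice, so their separation follows largely from the call and adds no support of its own. Mamdc2, Baiap2l2, Fabp5, Tmem163 and Pianp stayed under 1 CPM in all 4 WT mice. They passed the filter only through the 4 AD mice, so their separation was fixed in advance. The limma p-values given for these genes below carry the same limit. The calls were uneven in strength: 24 of the 47 were called with any 1 of the 16 libraries left out, and 23 lost the call without at least 1 library, named with each gene below. Fitting the 8 p38+/+ libraries alone kept 23 of the 47. Leaving out the females of both p38+/+ groups, with all p38KO libraries still in the fit, kept 17. All 47 were still higher in each fit.

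**Figure D1:**
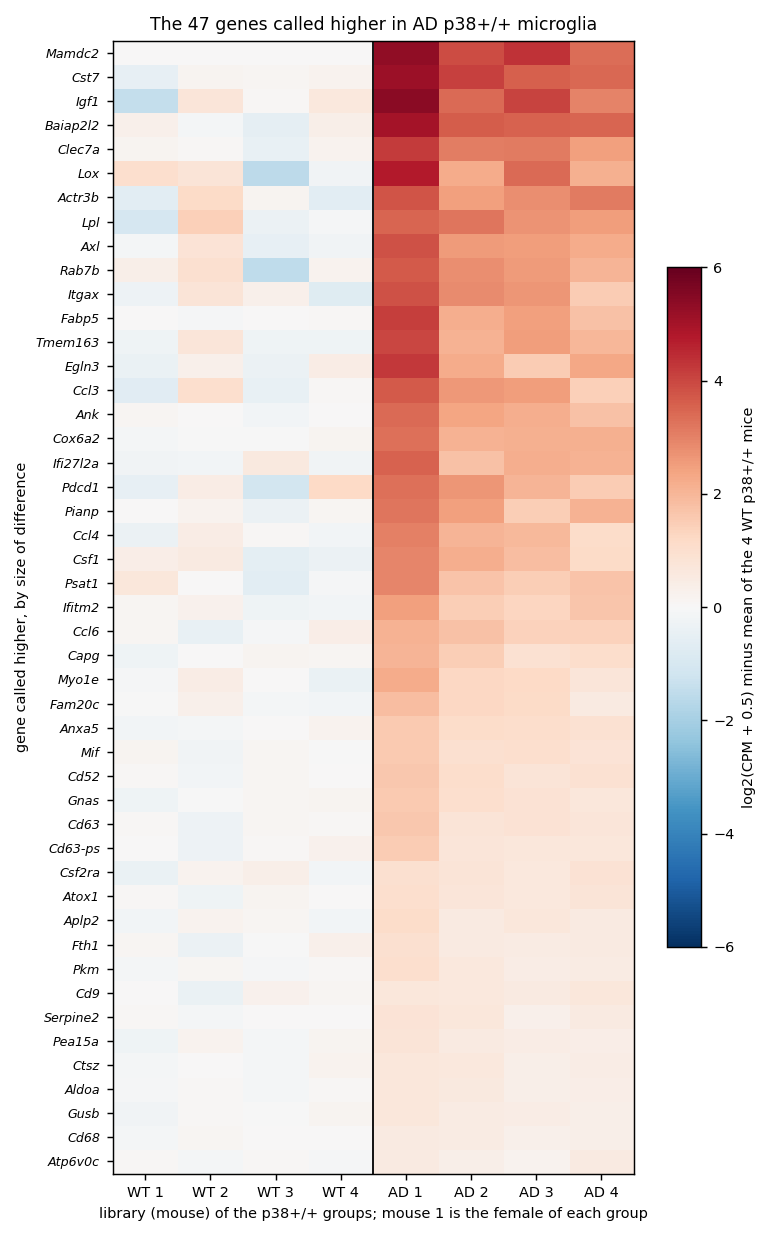
Level of the 47 called genes in each of the 8 p38+/+ mice, as log2(CPM + 0.5) minus the mean of the 4 WT p38+/+ mice, with genes in order of the size of the difference. The 4 AD columns are above 0 for each gene, and the column of AD mouse 1 is the darkest for 45 of the 47.

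Promoter windows are shown for 4 called genes, chosen because their windows hold a searched motif. For each motif found among the called genes, the gene with the smallest p by limma was taken. The products are a lysosomal cystatin (Cst7), a transporter (Ank), a growth factor (Csf1) and an interferon-induced membrane protein (Ifitm2). Each is 300 bases from RefSeq (GRCm38.p6), from 250 before to 50 after the annotated start, written 5′ to 3′ on the gene's own strand. Capitals mark the match to 1 searched motif on either strand: TGANTCA (AP-1) in Cst7 at chr2:150570165-150570464 on the plus strand, GAGGAA (the core of ETS factors such as PU.1) in Ank at chr15:27466427-27466726 on the plus strand, GGGA, any base, TTTCC (NF-kB) in Csf1 at chr3:107760420-107760719 on the minus strand, and GAAA, any 2 bases, GAAA (the core of the interferon-stimulated response element) in Ifitm2 at chr7:140955912-140956211 on the minus strand.
Cst7: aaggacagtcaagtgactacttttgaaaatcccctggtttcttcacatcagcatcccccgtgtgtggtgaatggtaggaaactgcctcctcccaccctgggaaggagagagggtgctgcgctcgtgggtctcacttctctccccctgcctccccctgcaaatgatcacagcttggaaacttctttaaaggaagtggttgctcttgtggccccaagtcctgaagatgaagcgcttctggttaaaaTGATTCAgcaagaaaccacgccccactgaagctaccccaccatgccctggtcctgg
Ank: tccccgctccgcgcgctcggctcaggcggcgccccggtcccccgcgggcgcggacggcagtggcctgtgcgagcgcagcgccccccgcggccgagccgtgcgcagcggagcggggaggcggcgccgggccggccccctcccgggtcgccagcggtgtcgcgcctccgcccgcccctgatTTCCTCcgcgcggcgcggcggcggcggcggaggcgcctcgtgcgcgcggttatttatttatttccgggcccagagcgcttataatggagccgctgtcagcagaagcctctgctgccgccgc
Csf1: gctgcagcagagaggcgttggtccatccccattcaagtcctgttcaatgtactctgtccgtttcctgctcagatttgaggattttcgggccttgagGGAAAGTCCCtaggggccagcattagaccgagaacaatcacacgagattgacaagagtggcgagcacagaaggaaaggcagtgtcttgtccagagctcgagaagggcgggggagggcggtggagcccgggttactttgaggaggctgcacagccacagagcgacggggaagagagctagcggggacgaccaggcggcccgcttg
Ifitm2: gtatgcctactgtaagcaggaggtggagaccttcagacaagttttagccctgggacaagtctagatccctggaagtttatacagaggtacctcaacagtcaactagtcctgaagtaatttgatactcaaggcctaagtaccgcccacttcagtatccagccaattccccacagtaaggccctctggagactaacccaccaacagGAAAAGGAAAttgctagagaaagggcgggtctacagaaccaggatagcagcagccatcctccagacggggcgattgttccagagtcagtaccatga

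Of the 47 called genes, 35 had a window. Not matched were Mamdc2, Lox, Cox6a2, Cd52, Ifi27l2a, Actr3b, Lpl, Cd63-ps, Ccl4, Baiap2l2, Rab7b and Fabp5. The AP-1 motif was in the windows of 5 of the 35 (14.3%), namely Cst7, Itgax, Igf1, Aldoa and Cd68, against 5.75% of the 9106 tested genes with a window and 8.97% of all 27025. The GAGGAA core was in 15 (42.9%), against 30.3% of tested genes and 31.3% of all. The interferon motif was in Ifitm2 alone (2.86%, against 3.81% and 3.99%), the NF-kB motif in Csf1 alone (2.86%, against 0.516% and 0.466%), and CACGTG, the E-box core bound by TFEB, TFE3 and MITF, in 0 of 35, against 12.05% of tested genes and 8.09% of all. Some matches of these motifs fall in the same window, as in Cd68, Igf1 and Aldoa, which hold both AP-1 and GAGGAA. These are counts of letters in short windows and were not tested.

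The list of 60 genes known from disease-associated microglia held the larger part of the calls. Of its 57 tested members 26 were called higher and 0 lower, 56 had a positive difference, and the median was 1.01 on the log2 scale, against 0.361% called and a median of -0.009 over all genes. The list was written with earlier results of these data known, so its count is not independent evidence of direction. The lists also overlap. Every called member of the lysosomal, lipid, secreted-factor and complement lists below is a member of this list too, so those counts are not separate evidence. Its median differed between the AD p38+/+ mice, from 0.674 in mouse 4 to 1.58 in mouse 1. Members that were not called include the receptor for which the state is known. Trem2 was 681, 657, 750 and 757 CPM in the WT mice and 973, 872, 839 and 856 CPM in the AD mice, a complete separation with a difference of 0.32 ± 0.11 on the log2 scale (adjusted p = 0.413). Its adaptor Tyrobp overlapped between groups, at 745, 506, 747 and 971 CPM in the WT mice and 1068, 942, 904 and 857 CPM in the AD mice (log2 difference 0.38 ± 0.14, adjusted p = 0.542). Apoe, the main lipid carrier protein of the brain, was 263, 671, 223 and 141 CPM in the WT mice and 1613, 820, 733 and 511 CPM in the AD mice, and WT mouse 2 lay above the lowest AD mouse (log2 difference 1.62 ± 0.39, adjusted p = 0.106). Apoe was called with WT mouse 2 (adjusted p = 0.00893) left out, and also with array weights (adjusted p = 0.0178) and with the replicate block in 16 libraries (adjusted p = 0.033). Spp1, which encodes osteopontin, overlapped as well, at 19.8, 38.5, 11.8 and 11.2 CPM in the WT mice and 46.8, 26.8, 28.7 and 17.4 CPM in the AD mice (log2 difference 0.64 ± 0.63, adjusted p = 0.941).

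The called lysosomal genes rose by large and small amounts. Cst7, the gene for cystatin F, a cysteine protease inhibitor of the endolysosome, had the smallest adjusted p of all genes. It measured 7.61, 12.4, 11.99 and 12.6 CPM in the WT mice and 395, 197, 135 and 122 CPM in the AD mice, and rose by 4.05 ± 0.30 on the log2 scale (adjusted p = 1.18e-06). The lowest AD mouse lay far above the highest WT mouse. Cd63, a tetraspanin of late endosomes (chr10:128900989-128912822), was 146, 111.1, 150 and 145 CPM in the WT mice and 428, 238, 254 and 227 CPM in the AD mice and rose by 1.01 ± 0.17 on the log2 scale (adjusted p = 0.00933). Its processed pseudogene Cd63-ps also passed (log2 difference 0.90 ± 0.18, adjusted p = 0.0378), but reads may be shared between the near-identical copies, so the pair is not counted as separate evidence, and Cd63-ps lost its call with any 1 of WT mice 1 to 3, WT p38KO mice 1 and 4, AD mice 1 to 3 and AD p38KO mouse 2 left out (adjusted p = 0.0523 to 0.116).

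Among the enzymes and membrane proteins of the lysosome the differences were smaller. Ctsz, the gene for cathepsin Z, a carboxypeptidase, was 1435, 1567, 1455 and 1802 CPM in the WT mice and 2503, 2407, 2009 and 2129 CPM in the AD mice and rose by 0.53 ± 0.09 on the log2 scale (adjusted p = 0.0109); its call was lost with any 1 of WT mouse 3 and AD mice 1 and 2 left out (adjusted p = 0.0596 to 0.0612). Gusb, which encodes beta-glucuronidase, rose from 412 ± 46.5 to 577 ± 59.4 CPM (log2 difference 0.48 ± 0.10, adjusted p = 0.037) and lost the call with any 1 of WT mice 1 and 3, WT p38KO mice 1 and 4, AD mice 1 to 3 and AD p38KO mouse 2 left out (adjusted p = 0.0528 to 0.194). Cd68, a glycoprotein of the macrophage lysosomal membrane, rose from 936 ± 63.6 to 1257 ± 102 CPM (log2 difference 0.42 ± 0.09, adjusted p = 0.0402), with the call lost with any 1 of WT mice 1, 3 and 4, WT p38KO mice 3 and 4, AD mice 1 to 4 and AD p38KO mice 2 and 4 left out (adjusted p = 0.0507 to 0.209). Atp6v0c, a membrane subunit of the proton pump that acidifies the lysosome, rose from 222 ± 15.6 to 295 ± 27.3 CPM (log2 difference 0.41 ± 0.09, adjusted p = 0.0424), and that call stood in only 1 of the 16 fits, being lost with any 1 of WT mice 1 to 4, WT p38KO mice 1 to 4, AD mice 1, 2 and 4 and AD p38KO mice 1 to 4 left out (adjusted p = 0.0507 to 0.212). Ctsb and Ctsd, the genes for cathepsins B and D, separated the groups without passing. Ctsb was 2829, 3262, 3053 and 3947 CPM in the WT mice and 4968, 4600, 4293 and 4234 CPM in the AD mice (log2 difference 0.47 ± 0.10, adjusted p = 0.0535), and was called with any 1 of WT mouse 4 and AD p38KO mice 1 and 3 left out (adjusted p = 0.0108 to 0.0486). Ctsd was 15997, 15995, 14650 and 20119 CPM in the WT mice and 22650, 21722, 21850 and 20235 CPM in the AD mice (log2 difference 0.38 ± 0.10, adjusted p = 0.17), and was called with WT mouse 4 (adjusted p = 0.0237) left out. Over the lysosomal list, 5 of 50 tested members were called higher and 0 lower, 40 had a positive and 10 a negative difference, and the median was 0.118 on the log2 scale, against 0.361% called higher, 48.5% positive and a median of -0.009 over all genes tested. In 13 of the 50 the AD mice lay above the WT mice without overlap and in 2 below them, against 3.31% and 1.91% of all genes tested.

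Among genes of lipid handling and transport, Lpl, the lipoprotein lipase that frees fatty acids from lipoproteins (chr8:68880491-68907448), was 8.19, 45.9, 13.4 and 16.002 CPM in the WT mice and 196, 163, 113 and 98.8 CPM in the AD mice. WT mouse 2 stood above the other WT mice, and all 4 AD mice lay above it; the gene rose by 2.99 ± 0.43 on the log2 scale (adjusted p = 0.00293). Fabp5, a carrier of fatty acids inside the cell, was 0.290, 0.243, 0.304 and 0.321 CPM in the WT mice and 13.6, 3.13, 3.82 and 2.19 CPM in the AD mice. It rose by 2.65 ± 0.46 on the log2 scale (adjusted p = 0.011). The fitted difference of Fabp5 depends on the 0.5 CPM added: it was 3.52 with 0.1 CPM and 2.10 with 1 CPM, and was called with both. Ank, which encodes a membrane exporter of pyrophosphate and ATP, was 63.6, 57.9, 50.6 and 59.5 CPM in the WT mice and 608, 302, 267 and 194 CPM in the AD mice, with a spread of only 5.40 CPM (SD) among the WT mice, and rose by 2.43 ± 0.23 on the log2 scale (adjusted p = 4.67e-05). Nceh1, a hydrolase of cholesterol esters, separated the groups at 61.6, 77.2, 89.0 and 62.5 CPM in the WT mice and 171, 119, 117 and 91.0 CPM in the AD mice without passing (log2 difference 0.76 ± 0.17, adjusted p = 0.0659); it was called with AD mouse 4 (adjusted p = 0.0212) left out. Of 26 tested members of the lipid list 2 were called, both named here, against 0.361% of all genes tested, and the median was 0.202. No member of the 22 tested in cholesterol synthesis was called (7 higher and 0 lower at an unadjusted p under 0.05 by limma, against 4.74% and 2.50% of all genes tested). Differences were positive in 17, against 48.5% of all genes tested. The list's median was 0.318, which was 0.173 with the males alone and 0.176 without WT mouse 1.

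Among receptors, Clec7a, the gene for dectin-1, a receptor for beta-glucans (chr6:129461591-129472779), was 5.87, 5.598, 3.80 and 6.11 CPM in the WT mice and 105.9, 47.2, 50.1 and 31.3 CPM in the AD mice and rose by 3.21 ± 0.52 on the log2 scale (adjusted p = 0.00667). Axl, a receptor tyrosine kinase that binds phosphatidylserine on dying cells through GAS6 (chr7:25757273-25788705), was 32.6, 62.8, 25.1 and 29.9 CPM in the WT mice and 499, 207, 203 and 168 CPM in the AD mice and rose by 2.77 ± 0.33 on the log2 scale (adjusted p = 0.000345). Itgax, the integrin chain CD11c, was 7.87, 17.2, 12.3 and 5.78 CPM in the WT mice and 147, 74.7, 64.7 and 29.1 CPM in the AD mice and rose by 2.71 ± 0.45 on the log2 scale (adjusted p = 0.00761). For these 3 receptors AD mouse 1 was highest and AD mouse 4 lowest of the AD mice. Pdcd1, the gene for the inhibitory receptor PD-1, was 3.70, 7.48, 2.28 and 12.9 CPM in the WT mice and 57.9, 37.4, 24.1 and 16.5 CPM in the AD mice; WT mouse 4 came close to AD mouse 4, the gene rose by 2.38 ± 0.44 on the log2 scale (adjusted p = 0.0188), and the call was lost with any 1 of WT mice 1 and 3 and AD mice 1 and 2 left out (adjusted p = 0.073 to 0.115). Csf2ra, the alpha chain of the GM-CSF receptor, rose from 48.9 ± 11.4 to 84.8 ± 8.62 CPM (log2 difference 0.81 ± 0.16, adjusted p = 0.037), and the call was lost with any 1 of WT mice 1 and 4, WT p38KO mice 1 and 4, AD mice 1 to 4 and AD p38KO mouse 2 left out (adjusted p = 0.052 to 0.194).

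Cd9, a tetraspanin of the plasma membrane, was even among the AD mice, at 1363, 1007, 1569 and 1442 CPM in the WT mice and 2118, 2091, 1956 and 2119 CPM in the AD mice, and rose by 0.64 ± 0.11 on the log2 scale (adjusted p = 0.00946). Cd52, a small lipid-anchored glycoprotein of leukocytes, was 69.4, 57.4, 69.99 and 65.5 CPM in the WT mice and 199, 138, 113 and 122 CPM in the AD mice and rose by 1.09 ± 0.17 on the log2 scale (adjusted p = 0.00494). Tmem163, a zinc transporter, was listed at 0 in 3 WT mice and measured 8.96, 2.00, 2.88 and 1.84 CPM in the AD mice (log2 difference 2.64 ± 0.43, adjusted p = 0.00667). Its fitted difference was 4.38 with 0.1 CPM added and 1.95 with 1 CPM, and the call was lost with 0.0001 CPM (adjusted p = 0.466). Pianp, a ligand of paired immunoglobulin-like receptors, was under 3 reads in 3 of 4 WT mice and measured 5.42, 3.03, 1.27 and 2.20 CPM in the AD mice (log2 difference 2.31 ± 0.45, adjusted p = 0.0309), with the call lost with any 1 of WT mice 1 to 4, WT p38KO mouse 4 and AD mice 1, 2 and 4 left out (adjusted p = 0.0501 to 0.175). In the list of surface receptors and adhesion genes of activated myeloid cells, 3 of 50 tested members were called (Itgax, Pdcd1 and Csf2ra), and 28 differences were positive and 22 negative, with a median of 0.047. Of all genes tested 0.361% were called and 48.5% had a positive difference. In the list of TREM2 signaling and risk genes 0 of 35 were called (10 higher and 1 lower at an unadjusted p under 0.05 by limma, against 4.74% and 2.50% of all genes tested), with a median of 0.079. Of 12 complement genes only Itgax was called, and their median was 0.114.

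Among secreted factors, Igf1, insulin-like growth factor 1 (chr10:87858265-87937042), was 0.217, 2.68, 1.52 and 2.44 CPM in the WT mice and 80.7, 19.9, 31.3 and 14.6 CPM in the AD mice, and rose by 3.96 ± 0.58 on the log2 scale (adjusted p = 0.0039). It was under 3 reads in WT mouse 1, and AD mouse 1 stood apart from the other 3 AD mice. Csf1, the growth factor on which microglia depend for survival, was 22.97, 25.9, 11.5 and 13.7 CPM in the WT mice and 137, 81.6, 63.8 and 38.9 CPM in the AD mice and rose by 2.02 ± 0.31 on the log2 scale (adjusted p = 0.00494). Ccl6, a CC chemokine (chr11:83587882-83593087), was 196, 136, 173 and 244 CPM in the WT mice and 778, 620, 477 and 485 CPM in the AD mice and rose by 1.66 ± 0.18 on the log2 scale (adjusted p = 9.76e-05), with a small spread in both groups. Ccl3, an inflammatory CC chemokine, rose from 11.7 ± 6.89 to 74.3 ± 47.8 CPM (log2 difference 2.56 ± 0.52, adjusted p = 0.0387) and lost the call with any 1 of WT mice 1, 3 and 4, WT p38KO mice 3 and 4, AD mice 1 to 3 and AD p38KO mouse 2 left out (adjusted p = 0.0557 to 0.209). Its neighbour on chromosome 11, Ccl4, rose from 11.2 ± 2.98 to 51.5 ± 29.0 CPM (log2 difference 2.02 ± 0.40, adjusted p = 0.0353) and lost the call with any 1 of WT mice 1, 3 and 4, WT p38KO mouse 4, AD mice 1 to 3 and AD p38KO mouse 2 left out (adjusted p = 0.052 to 0.175).

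Mamdc2, the gene for an extracellular matrix protein with MAM domains (chr19:23302609-23448442), was listed at 0 in all 4 WT mice and measured 19.3, 7.03, 9.71 and 4.68 CPM in the AD mice. Against a floor of 3 reads in the shallowest WT library (0.229 CPM) its mean was at least 44.4-fold higher, while the fitted difference of 4.24 ± 0.51 on the log2 scale (adjusted p = 0.000434) depends on the 0.5 CPM added. Mif, macrophage migration inhibitory factor, was 19.5, 14.9, 18.9 and 17.1 CPM in the WT mice and 53.0, 34.7, 35.6 and 31.5 CPM in the AD mice and rose by 1.09 ± 0.17 on the log2 scale (adjusted p = 0.00627). Serpine2, an inhibitor of thrombin and plasminogen activators, was 727, 652, 720 and 706 CPM in the WT mice and 1229, 1109, 868 and 1002 CPM in the AD mice and rose by 0.57 ± 0.11 on the log2 scale (adjusted p = 0.026), a call lost with any 1 of WT mice 1 to 4 and AD mice 1 and 2 left out (adjusted p = 0.055 to 0.134). Lox, the enzyme that crosslinks collagen and elastin, was 2.46, 2.07, 0 and 0.771 CPM in the WT mice and 39.7, 6.34, 15.3 and 5.96 CPM in the AD mice (log2 difference 3.13 ± 0.65, adjusted p = 0.0416); the call was lost with any 1 of WT mice 2 to 4, WT p38KO mice 1, 3 and 4, AD mice 1 to 3 and AD p38KO mouse 3 left out (adjusted p = 0.0532 to 0.212). Fam20c, the kinase that phosphorylates secreted proteins, rose from 20.1 ± 3.13 to 48.7 ± 18.9 CPM (log2 difference 1.19 ± 0.23, adjusted p = 0.0309) and lost the call with any 1 of WT mice 1, 3 and 4, WT p38KO mouse 4 and AD mice 1 to 3 left out (adjusted p = 0.0501 to 0.138). Of the 27 chemokines, cytokines and secreted factors tested, 5 were called (Igf1, Csf1, Ccl3, Ccl4 and Ccl6), 21 differences were positive, and the median was 0.513, against 0.361% called and 48.5% positive over all genes tested.

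**Figure D2:**
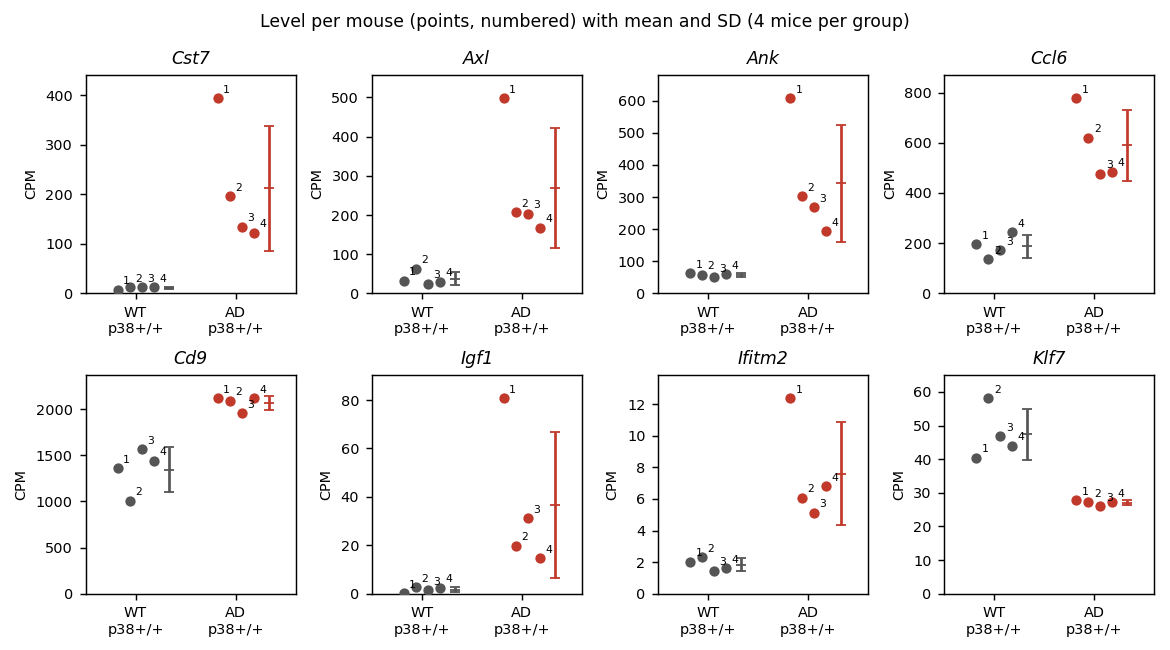
CPM of 8 genes in each mouse (points, numbered 1 to 4) with the mean and SD of each group beside them, on linear axes from 0. For the 7 called genes the groups do not overlap, AD mouse 1 is highest in all but Cd9, and Klf7, not called, lies lower in the 4 AD mice (26.0 to 27.8 CPM) than in the 4 WT mice.

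Called genes of the cytoskeleton and of membrane traffic belong to no list of their own and are set together here by their known roles. Baiap2l2, which bends membranes and links them to actin, was 0.652, 0.365, 0.152 and 0.707 CPM in the WT mice and 29.4, 11.3, 10.3 and 10.0 CPM in the AD mice. It rose by 3.91 ± 0.41 on the log2 scale (adjusted p = 9.76e-05). The fitted difference of Baiap2l2 was 4.73 with 0.1 CPM added and 3.34 with 1 CPM, and its call was lost with 0.0001 CPM (adjusted p = 0.52). Actr3b, an actin-related protein of the branching complex, was 0, 1.22, 0.380 and 0 CPM in the WT mice and 10.3, 3.86, 4.85 and 6.38 CPM in the AD mice and rose by 3.04 ± 0.47 on the log2 scale (adjusted p = 0.00494). With 2 WT mice at 0 the fitted difference of Actr3b depends on the 0.5 CPM added: it was 4.42 with 0.1 CPM, 2.40 with 1 CPM, and not called with 0.0001 CPM (adjusted p = 0.524). Capg, an actin-capping protein of macrophages, was 22.4, 27.6, 30.2 and 29.2 CPM in the WT mice and 111.6, 77.0, 51.0 and 56.2 CPM in the AD mice and rose by 1.36 ± 0.21 on the log2 scale (adjusted p = 0.0048). Myo1e, a myosin that ties membrane to actin, rose from 28.2 ± 7.09 to 76.4 ± 37.2 CPM (log2 difference 1.35 ± 0.26, adjusted p = 0.0309) and lost the call with any 1 of WT mice 1, 3 and 4 and AD mice 1 to 3 left out (adjusted p = 0.061 to 0.107). Rab7b, a small GTPase of traffic between endosomes and the Golgi, was 1.30, 2.31, 0 and 1.16 CPM in the WT mice and 18.1, 9.24, 7.88 and 5.46 CPM in the AD mice. It rose by 2.77 ± 0.47 on the log2 scale (adjusted p = 0.00933). The call of Rab7b was lost with AD mouse 1 left out (adjusted p = 0.0557) and with 0.0001 CPM added (adjusted p = 0.531). Anxa5, which binds phosphatidylserine, was 23.2, 24.2, 26.9 and 30.6 CPM in the WT mice and 78.9, 56.7, 54.9 and 49.3 CPM in the AD mice and rose by 1.16 ± 0.15 on the log2 scale (adjusted p = 0.00136).

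Signaling proteins included Gnas, the locus of the stimulatory G protein alpha subunit, at 292, 341, 372 and 396 CPM in the WT mice and 1041, 690, 638 and 563 CPM in the AD mice, which rose by 1.03 ± 0.16 on the log2 scale (adjusted p = 0.00539). Transcripts on both strands overlap at this locus, and the strand setting of the counting is not given in the sources used here. Pea15a, a phosphoprotein that binds ERK, rose from 189 ± 28.2 to 277 ± 33.2 CPM (log2 difference 0.55 ± 0.11, adjusted p = 0.0402) and lost the call with any 1 of WT mice 1 and 3, WT p38KO mice 1, 3 and 4, AD mice 1 to 4 and AD p38KO mice 2 and 3 left out (adjusted p = 0.0519 to 0.212).

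Among metabolic genes, Psat1, an enzyme of serine synthesis (chr19:15904678-15947337), was 26.1, 16.5, 10.1 and 15.6 CPM in the WT mice and 126, 54.5, 45.4 and 53.3 CPM in the AD mice and rose by 1.95 ± 0.32 on the log2 scale (adjusted p = 0.00775). Cox6a2, a subunit of cytochrome c oxidase known best from muscle and heart, was 4.28, 4.56, 4.55 and 5.33 CPM in the WT mice and 51.1, 21.1, 21.95 and 22.1 CPM in the AD mice and rose by 2.41 ± 0.36 on the log2 scale (adjusted p = 0.0039). In both genes AD mouse 1 stood well above 3 AD mice that lay close together. Egln3, a prolyl hydroxylase that acts on hypoxia-inducible factor, was 0.507, 1.10, 0.531 and 1.29 CPM in the WT mice and 24.4, 5.65, 3.24 and 6.10 CPM in the AD mice (log2 difference 2.58 ± 0.53, adjusted p = 0.0392); the call was lost with any 1 of WT mice 1 to 4, WT p38KO mice 2 and 4, AD mice 1, 2 and 4 and AD p38KO mouse 2 left out (adjusted p = 0.0519 to 0.172). Pkm, the pyruvate kinase of glycolysis, rose from 237 ± 19.0 to 374 ± 71.3 CPM (log2 difference 0.65 ± 0.13, adjusted p = 0.0427) but lost the call with any 1 of WT mice 1 to 4, WT p38KO mice 1 to 4, AD mice 1 to 4 and AD p38KO mice 2 and 3 left out (adjusted p = 0.0535 to 0.209). Aldoa, the aldolase of glycolysis, rose from 235 ± 14.1 to 333 ± 33.4 CPM (log2 difference 0.50 ± 0.10, adjusted p = 0.0402) and lost the call with any 1 of WT mice 1 to 4, WT p38KO mice 1 to 4, AD mice 1, 2 and 4 and AD p38KO mouse 2 left out (adjusted p = 0.0536 to 0.212). Of the 24 glycolysis and hypoxia genes tested, those 3 were called, 16 differences were positive, and the median was 0.251, against 0.361% called and 48.5% positive over all genes tested.

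Among genes of metal handling, Atox1, a copper chaperone, was 45.5, 36.0, 49.9 and 45.2 CPM in the WT mice and 87.6, 72.0, 68.5 and 75.2 CPM in the AD mice and rose by 0.78 ± 0.13 on the log2 scale (adjusted p = 0.00775). Fth1, the heavy chain of ferritin that stores iron, was 1359, 987, 1253 and 1561 CPM in the WT mice and 2470, 1876, 1809 and 1879 CPM in the AD mice and rose by 0.65 ± 0.13 on the log2 scale (adjusted p = 0.0361); many processed copies of Fth1 exist in the genome, and the call was lost with any 1 of WT mice 1 to 3, WT p38KO mouse 4, AD mice 1 to 4 and AD p38KO mouse 2 left out (adjusted p = 0.052 to 0.175). The 15 genes of the mitochondrial genome all had positive differences, as 48.5% of all genes tested did, with a median of 0.293 on the log2 scale, but 0 were called (6 higher and 0 lower at an unadjusted p under 0.05 by limma, against 4.74% and 2.50% of all genes tested). Their summed level was 6889 to 13019 CPM in WT mice and 11472 to 14411 CPM in AD mice, and the groups overlapped. In the p38KO mice the median AD minus WT difference of these genes was -0.119.

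Most interferon-stimulated genes had positive differences, with few calls. Of the 55 members tested, 2 were called, 46 had a positive difference, and the median was 0.666 on the log2 scale, against 0.361% called higher, 48.5% positive and a median of -0.009 over all genes tested. Ifitm2, of the family of membrane proteins that hinder virus entry (chr7:140954837-140955987), was 2.03, 2.31, 1.44 and 1.61 CPM in the WT mice and 12.4, 6.07, 5.13 and 6.81 CPM in the AD mice and rose by 1.73 ± 0.31 on the log2 scale (adjusted p = 0.0152), a call lost with WT mouse 3 (adjusted p = 0.0644) or AD mouse 1 (adjusted p = 0.0936) left out. Ifi27l2a, a small interferon-induced protein of mitochondria, was 3.12, 3.23, 5.62 and 3.02 CPM in the WT mice and 47.8, 13.4, 18.3 and 17.2 CPM in the AD mice and rose by 2.40 ± 0.46 on the log2 scale (adjusted p = 0.0307), and its call was lost with any 1 of WT mice 1, 2 and 4 and AD mice 1 and 3 left out (adjusted p = 0.061 to 0.15). Ifitm3, a neighbour and close relative of Ifitm2 with which reads may be shared, was 7.25, 7.06, 16.3 and 8.55 CPM in the WT mice and 71.0, 22.9, 38.8 and 18.8 CPM in the AD mice (log2 difference 1.79 ± 0.45, adjusted p = 0.133). Rtp4, another interferon-induced gene, was 10.3, 17.4, 21.1 and 14.2 CPM in the WT mice and 53.4, 26.3, 37.1 and 21.4 CPM in the AD mice (log2 difference 1.07 ± 0.31, adjusted p = 0.266). The medians of the list in single AD mice were 0.899, 0.329, 0.562 and 0.308 for mice 1 to 4. With the males alone the list's median was 0.374.

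Genes of MHC class I, which presents peptides to cytotoxic T cells, were not called, and the 3 named here separated the groups. B2m, the invariant light chain, was 1800, 1352, 1601 and 1906 CPM in the WT mice and 3049, 2148, 2301 and 2544 CPM in the AD mice (log2 difference 0.59 ± 0.13, adjusted p = 0.0606). The heavy chain H2-D1 was 700, 799, 675 and 708 CPM in the WT mice and 1524, 988, 1053 and 1045 CPM in the AD mice (log2 difference 0.66 ± 0.14, adjusted p = 0.0606), and H2-K1 was 362, 449, 427 and 330 CPM in the WT mice and 833, 526, 552 and 561 CPM in the AD mice (log2 difference 0.64 ± 0.16, adjusted p = 0.13); reads may be shared between these similar genes. The AD mice lay above the WT mice without overlap in 6 of the 24 tested members of the class I list, these 3 included, and in 3.31% of all genes. B2m was called with AD p38KO mouse 1 (adjusted p = 0.046) or AD p38KO mouse 3 (adjusted p = 0.0476) left out, and H2-D1 with AD p38KO mouse 1 (adjusted p = 0.0355) or AD p38KO mouse 3 (adjusted p = 0.0273) left out. Of the 24 members 0 were called (9 higher and 0 lower at an unadjusted p under 0.05 by limma, against 4.74% and 2.50% of all genes tested), 21 differences were positive (48.5% of all genes tested) and the median was 0.207. The class II list, which presents to helper T cells, had 0 of 11 called (0 in either direction at an unadjusted p under 0.05) and a median of 0.187, with the group sums overlapping.

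No gene of the surveying, homeostatic state was called lower, and neither was any other gene. Of 40 tested homeostatic genes 32 had a negative and 8 a positive difference, with a median of -0.126 on the log2 scale and 0 higher and 6 lower at an unadjusted p under 0.05 by limma. Over all genes tested 51.5% had a negative difference and 2.50% were lower at that p. Cx3cr1, the fractalkine receptor whose ligand comes from neurons (chr9:119901616-120069879), was 8130, 9296, 7842 and 8275 CPM in the WT mice and 5639, 6943, 7429 and 7044 CPM in the AD mice (log2 difference -0.32 ± 0.09, adjusted p = 0.296). Mef2a, a transcription factor of resting microglia, was 869, 1033, 848 and 828 CPM in the WT mice and 692, 746, 678 and 729 CPM in the AD mice (log2 difference -0.33 ± 0.08, adjusted p = 0.153). In both the groups did not overlap, as in 3 of the 40 listed genes and 1.91% of all genes tested in that direction. P2ry12, the purine receptor on which the cells were sorted, was 10100, 6948, 7684 and 10000 CPM in the WT mice and 6787, 6639, 8585 and 7960 CPM in the AD mice (exact permutation test, two-sided, p = 0.257), and Tmem119, a microglial surface protein, did not separate either (p = 0.229 by the same exact test).

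Of 41 transcription factors tested 0 were called (3 higher and 4 lower at an unadjusted p under 0.05 by limma, against 4.74% and 2.50% of all genes tested), and their median was 0.011. Klf7, a zinc finger factor, was 40.4, 58.1, 46.9 and 44.0 CPM in the WT mice and 27.8, 27.2, 26.0 and 27.2 CPM in the AD mice, with the 4 AD mice within 2 CPM of each other and below all WT mice (log2 difference -0.78 ± 0.17, adjusted p = 0.0606). It was called lower with AD p38KO mouse 2 (adjusted p = 0.0206) or AD p38KO mouse 4 (adjusted p = 0.023) left out, and also with quantile scaling (adjusted p = 0.048) and with array weights (adjusted p = 0.0104). Bhlhe40, a repressor induced in activated macrophages, was 2.75, 2.74, 0 and 0.129 CPM in the WT mice and 20.4, 10.1, 7.88 and 6.60 CPM in the AD mice (log2 difference 2.99 ± 0.64, adjusted p = 0.052), and was called with any 1 of WT mice 1 and 2, WT p38KO mouse 2 and AD p38KO mouse 4 left out (adjusted p = 0.0339 to 0.0438). Bhlhe40 was also called in 8 of 14 other settings, among them TMM scaling (adjusted p = 0.0442), array weights (0.0104) and the replicate block in 16 libraries (0.0185). Cdc37l1, a cochaperone of HSP90, was 51.0, 59.4, 45.0 and 45.0 CPM in the WT mice and 40.0, 26.2, 31.9 and 35.04 CPM in the AD mice (log2 difference -0.59 ± 0.16, adjusted p = 0.201). Tmc7, of the transmembrane channel-like family, was 50.2, 45.3, 49.9 and 34.9 CPM in the WT mice and 21.6, 33.2, 27.2 and 30.1 CPM in the AD mice (log2 difference -0.68 ± 0.19, adjusted p = 0.22). N4bp2 overlapped, at 18.4, 20.4, 5.62 and 7.39 CPM in the WT mice and 6.49, 4.28, 5.70 and 2.34 CPM in the AD mice (log2 difference -1.25 ± 0.36, adjusted p = 0.278). In the cell cycle list 0 of 33 were called (5 higher and 0 lower at an unadjusted p under 0.05 by limma) and 31 differences were positive with a median of 0.524, against 4.74% higher at that p and 48.5% positive over all genes. In the p38KO mice the median of the list was -0.029. Stmn1, a microtubule regulator of dividing cells, was 18.2, 10.6, 18.1 and 22.7 CPM in the WT mice and 38.6, 23.01, 24.6 and 29.0 CPM in the AD mice (log2 difference 0.73 ± 0.23, adjusted p = 0.352). In the lists of immediate early and dissociation stress genes (29 tested, median -0.046) and of the p38 pathway (22 tested, median -0.058), 0 were called, with 1 and 0 genes higher and 0 lower at an unadjusted p under 0.05 by limma.

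**Figure D3:**
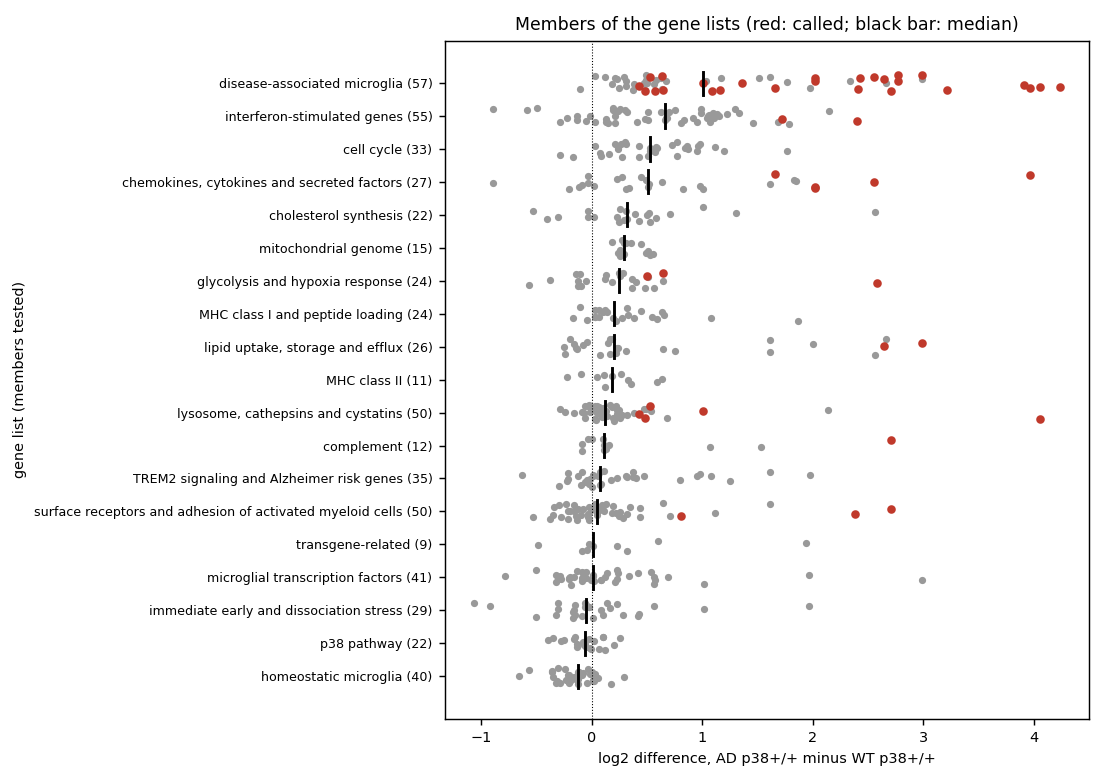
Log2 difference of AD p38+/+ minus WT p38+/+ mice for each tested member of the 19 gene lists other than markers of other cells (points; red where called, grey where not; the black bar is the list's median; the number tested stands after the name). Red points lie only to the right, and the medians of these lists run from -0.126 for homeostatic to 1.01 for disease-associated microglia.

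Genes tied to the design of the mice were read as a check. Mapk14, the gene for p38α, was 166, 210, 183 and 162 CPM in the WT mice and 152, 173, 162 and 169 CPM in the AD mice (exact permutation test, two-sided, p = 0.257). App was 208, 265, 211 and 226 CPM in the WT mice and 274, 285, 298 and 276 CPM in the AD mice, with no overlap between groups (exact permutation test, two-sided, p = 0.0286, the smallest p that 4 mice against 4 can give) and a limma difference of 0.32 ± 0.10 on the log2 scale (adjusted p = 0.35). How far reads of the mutant human or mouse-human transgenes aligned to mouse App was not tested.

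Prnp, the prion protein gene whose promoter drives both transgenes (chr2:131909928-131938429), was 2.75, 3.96, 4.18 and 2.18 CPM in the WT mice and 19.7, 14.8, 11.05 and 10.4 CPM in the AD mice, a complete separation (exact permutation test, two-sided, p = 0.0286). In the limma fit it did not pass (log2 difference 1.94 ± 0.51, adjusted p = 0.183); it was called with AD p38KO mouse 3 (adjusted p = 0.0153) left out, and in the fit of the 8 p38+/+ libraries alone (adjusted p = 0.0184). In p38KO mice the AD minus WT difference of Prnp was 0.49 (adjusted p = 0.807). Aplp2, an App homologue, was 152, 198, 181 and 149 CPM in the WT mice and 357, 245, 271 and 247 CPM in the AD mice and rose by 0.71 ± 0.14 on the log2 scale (adjusted p = 0.0309), a call lost with any 1 of WT mice 1, 3 and 4, WT p38KO mouse 4 and AD mice 1 and 3 left out (adjusted p = 0.0501 to 0.143). In the list of 9 genes related to the transgenes and to App processing, which does not hold Aplp2, 0 were called (2 higher and 0 lower at an unadjusted p under 0.05 by limma, against 4.74% and 2.50% of all genes tested), with a median of 0.017.

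The 4 AD p38+/+ mice differed among themselves in the strength of the response. AD mouse 1, the female, was the highest of the 4 in 45 of the 47 called genes, the exceptions being Cd9 and Atp6v0c, and in 33.4% of all genes tested. Its level was 2.05 times the mean of the 3 male AD mice in the median over the called genes, and 1.03 times over all genes. AD mouse 4 was lowest in 26 of the 47, AD mouse 3 in 17 and AD mouse 2 in 4. In the WT group the female stood at 0.906 times the mean of the males over the called genes, and it was the highest WT mouse in 25.3% of all genes. With only 1 female per group, sex and mouse cannot be told apart. Markers of border-associated macrophages moved with AD mouse 1: the median difference of the 12 tested markers from WT was 1.78 in that mouse, 0.620, 0.704 and -0.242 in mice 2 to 4, while the summed level in mouse 1 (537 CPM) lay inside the range of the WT mice (377 to 833 CPM). Stab1 made up most of that sum, with a mean of 553 CPM without and 447 CPM with APP/PS1. Mrc1 had means of 16.8 and 26.4 CPM, Pf4 of 4.80 and 10.1 CPM and Siglec1 of 5.32 and 10.8 CPM. Other means fell or changed little: Cd163 had 3.97 and 2.71 CPM, Cbr2 2.43 and 2.43 CPM, Lyve1 2.87 and 3.07 CPM and Ccl8 2.37 and 2.62 CPM. Of the 12 tested markers 0 were called, and 11 had a positive and 1 a negative log2 difference. Astrocyte markers had medians of 0.824, -0.009, 0.805 and -0.558 in mice 1 to 4. The part of these markers in the differences was not tested.

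The mice without microglial p38 gave a second set of WT and AD animals, sharing no mouse with the groups above. WT p38KO mice 1 and 2 and AD p38KO mouse 1 were female and the others male, so sex was not balanced there. Mapk14 measured 138, 169, 168 and 160 CPM in the WT p38KO mice and 142, 157, 166 and 145 CPM in the AD p38KO mice, so 5 of the 8 lay within the range of the p38+/+ mice (152 to 210 CPM) and 3 below it. These are gene-level values, while the paper judged the deletion on the major p38α transcript, which it reported as substantially reduced in both p38KO groups. Whether reads fell within the deleted part of the gene was not tested. All 47 genes had a positive AD minus WT difference there, against 44.0% of all genes tested, and in 44 of them the AD p38KO mice lay above the WT p38KO mice without overlap, as 2.72% of all genes did. Of the 47, 28 were called in the p38KO comparison too, in which 0.253% of genes were called higher and 0.0614% lower. Those 28 are 59.6% of the calls with p38 and 68.3% of the 41 calls without it. Cst7 differed by 4.05 with and 4.24 without p38, Mamdc2 by 4.24 and 4.13, Igf1 by 3.96 and 4.50, and Ank by 2.43 and 2.62. Clec7a differed by 3.21 with p38 and 2.33 without (adjusted p = 0.0722 without), Itgax by 2.71 and 1.97 (0.0771), Fabp5 by 2.65 and 1.69 (0.176) and Ifi27l2a by 2.40 and 1.34 (0.335). The difference was larger with p38 in 33 of the 47, and in 7444 of all 13022. The median over the 47 of the difference between the 2 effects was 0.106 on the log2 scale. Because the 47 were picked by their difference in p38+/+ mice, which favours larger values there, this count cannot show a larger effect with p38.

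Whether the APP/PS1 difference itself differed between p38+/+ and p38KO mice was tested as the contrast of the 2 differences. The p38KO mice also carried a Cx3cr1-creERT2 allele that the p38+/+ mice lacked, so p38 loss and that allele cannot be told apart. The paper names the resulting Cx3cr1 haploinsufficiency as a possible confounder. By limma 0 of 13022 genes passed (smallest adjusted p = 0.246), and 505 (3.88%) had an unadjusted p under 0.05. Of the 47 called genes only Ifitm2 was among these. It rose by 1.73 in p38+/+ mice and differed by 0.45 in p38KO mice (adjusted p = 0.684 there), and the adjusted p of the difference was 1. For Csf2ra the values were 0.81 and 0.35, with an adjusted p of the difference of 1. A call made with p38 and missed without it is therefore not shown to differ.

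**Figure D4:**
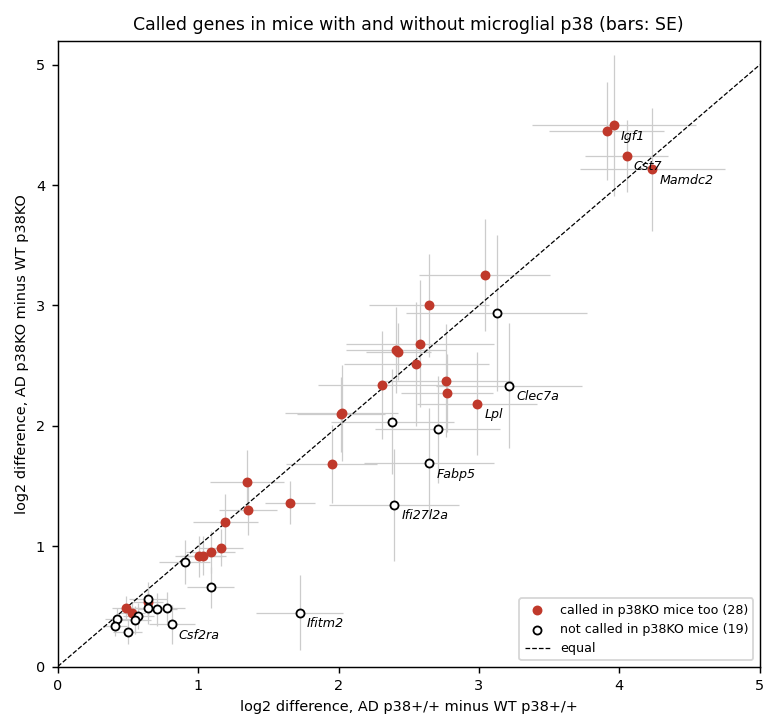
Log2 difference between AD and WT mice for the 47 called genes, with p38 (horizontal) and without (vertical), with SE bars. All points lie above 0 on both axes and around the dashed line of equal values, 28 are called on both axes (red), and Ifitm2 lies farthest below the line.

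At the level of transcripts, 29793 were tested and 41 (0.138%) were called higher and 0 lower by limma (710 were lower at an unadjusted p under 0.05). They belong to 33 genes, of which 31 are among the 47. By annotated type 36 were protein coding, 4 were retained introns and 1 was subject to nonsense-mediated decay. The count fell to 18 without AD mouse 1, 23 without AD mouse 2, 24 without WT mouse 1 and 27 without WT mouse 3. For Ank, both the coding transcript (45.8 ± 5.46 CPM with WT and 271 ± 134 CPM with APP/PS1) and a retained-intron form (12.2 ± 2.60 and 71.5 ± 48.3 CPM) were called. For Lpl the coding transcript rose by 2.70 ± 0.41 and the decay-annotated one by 3.03 ± 0.45 on the log2 scale. For Csf1 one coding transcript rose by 2.92 and another by 1.88 on the log2 scale. Outside the 47 genes, a retained-intron transcript of Ctsb rose from 393 ± 45.7 to 596 ± 32.6 CPM (adjusted p = 0.0171 by limma) and a coding transcript of Cd72, a C-type lectin of B cells and macrophages, from 1.18 ± 1.09 to 6.67 ± 1.07 CPM (adjusted p = 0.0266 by limma). How reads were divided among overlapping transcripts rests on the authors' assignment.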

How the data were processed

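RNA from microglia sorted from 16 mice was sequenced, 1 library per mouse, in 4 groups of 4 separate animals taken from the labels. The authors aligned reads to mm10 with STAR and quantified Ensembl genes and transcripts in Partek Flow (10.0.22.0828), then deposited counts per 1000000 assigned reads (CPM) plus 0.0001. Counts of reads could not be recovered, since only 77.9 to 81.1% of low values in the 8 p38+/+ libraries were whole multiples of 1 read (tolerance 0.05); depth and the floor of 3 reads were estimated from that step and cover counting error only. All value columns were mapped to a mouse. The labels describe the sorted hemisphere as fixed, while the methods describe fixing the other one.

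The added 0.0001 was subtracted, and genes that reached 1 CPM in 4 or more of the 8 p38+/+ libraries were kept. Their log2(CPM + 0.5) values were fitted in limma (3.58.1, under R 4.3.3), with empirical Bayes moderation along the mean-variance trend. All 16 libraries entered 1 fit of 4 group means, with two-sided contrasts and Benjamini-Hochberg adjustment over all genes tested. This took the place of the study's test on counts. Transcripts were tested in the same way, and single values by exact two-sided permutation of the 8 mice. The fit was tested on simulated data. Positions are from GENCODE M21 (GRCm38), in which 19733 of 20267 symbols were found, 99.1% of them with the deposited coordinates. Figures were made with Python 3.11.15 and matplotlib 3.10.9.

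Members and the 27 gene lists were chosen with earlier results of these data known. Lists are described by counts, medians and ranges of summed levels, with no set test. Genes were named from a pool set by a rule: the 25 largest rises among called genes without overlap, up to 4 members of each list by smallest p and 3 by highest CPM, called list members, 8 genes the study names, and 6 by the p of the difference between the AD effects. Not every gene of this pool is described. Myo1e, Fam20c, Mif, Gnas, Cd63-ps, Atox1, Aplp2, Pea15a, Atp6v0c, Tyrobp, Spp1 and Cd72 were named after their values were seen. Values of 1 gene are not reported here. Alternatives were other pseudocounts, filters and scalings, array weights, the 8 p38+/+ libraries alone, and sex and the S0 library label as covariates. Others were the animal number as a replicate block, males only of the p38+/+ groups with all p38KO libraries kept, and leaving out each library.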

Additional observations from a re-analysis of the deposited data

Results flagged for a closer look

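In 140 groups of 4 mice (70 named genes in the WT p38+/+ and AD p38+/+ groups), 18 had 1 mouse set apart from the other 3 by a gap that, over the range of the 4, was above Dixon's critical value; chance marks about 5% of such groups, and the genes share the same mice. AD mouse 1 was the high one in all 13 that fell in the AD group. Its levels there were 29.4 CPM for Baiap2l2, 499 CPM for Axl, 13.6 CPM for Fabp5, 8.96 CPM for Tmem163, 24.4 CPM for Egln3, 51.1 CPM for Cox6a2, 47.8 CPM for Ifi27l2a, 126 CPM for Psat1, 428 CPM for Cd63, 292 CPM for Cd63-ps, 1524 CPM for H2-D1, 2470 CPM for Fth1 and 833 CPM for H2-K1. In the WT group, mouse 1 was low for Cst7 (7.61 CPM), mouse 2 was low for Cd63 (111.1 CPM) and high for Tmem163 (0.487 CPM), and mouse 3 was high for Ifi27l2a (5.62 CPM) and Ifitm3 (16.3 CPM).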

How the results depend on the processing

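The 47 called genes had a positive difference in all 30 alternatives that tested them (a filter of 5 CPM tested 41), and Ank, Axl, Ccl6, Cd52, Cox6a2, Csf1, Cst7, Lpl and Psat1 were called in every one. The count of genes higher was 22 with a pseudocount of 0.0001 CPM and 29 with the 8 p38+/+ libraries alone. It was 19 without the females of both p38+/+ groups, in a fit that kept all p38KO libraries. With 1 library left out it ranged from 24 (without AD mouse 1) to 55 (without AD p38KO mouse 1). It was 28 without AD mouse 2, 28 without WT mouse 3 and 31 without WT p38KO mouse 4. Genes lower numbered 2 with quantile scaling (Klf7 and Gm38130), 1 with array weights (Klf7) and 0 to 2 with 1 library left out (Klf7, Trp53inp1, Gxylt1 or Hook3). For the difference between the AD effects, 4 genes passed with no filter (Gm48529, Pcdhgc3, Proser2 and Rhobtb3), and 0 to 1 with 1 library left out, Pcdhgc3 without WT mouse 4. Transcripts higher numbered 25 with the 8 libraries alone and 18 to 41 with 1 library left out, and transcripts lower 1 with a pseudocount of 1 CPM and 0 to 1 with 1 library left out. Medians near 0 changed sign, for transcription factors to -0.026 with a filter of 5 CPM and for the p38 pathway to 0.005 with array weights, and for both when certain libraries were left out (0.011 to -0.054 without WT mouse 4, and -0.058 to 0.047 without AD mouse 4). Without WT mouse 2 the median of MHC class II genes was 0.063 and that of TREM2 signaling and risk genes 0.187. The causes were not tested.

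The animal numbers are shared by the groups, but the deviations of same-numbered WT and AD mice from their group means had correlations of -0.005, 0.072, -0.077 and -0.022 over genes, so the numbers were not read as pairs; number 1 is the female in both. With the number as a replicate block, 19 genes were called higher in the 8 libraries (14 of the 47) and 47 in the 16 libraries (39 of the 47), and 14 transcripts in the 8 libraries. With 3 reads at 0.183 to 0.229 CPM, levels of Mamdc2 in all 4 WT mice and of Tmem163 in 3 of the 4 could not be told from 0.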
